A study of Mus musculus with 59 samples.

Results

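The genes described here encode proteins of the mitochondrial ribosome. They were chosen by name, as every symbol in a table of normalised read counts that starts with Mrpl or Mrps followed by a digit, and 77 of 23974 genes qualified, 48 named for the large subunit and 29 for the small subunit. Of these, 63 had a mean value of at least 10 normalised reads over the 12 libraries and were tested (81.8%, against 29.0% of all genes). The libraries are total RNA from mouse embryonic stem cells (ESCs) that had been established from blastocysts of the BDF1 strain. The culture medium held serum, LIF, the GSK3 inhibitor CHIR99021 and the MEK inhibitor PD0325901. Cells were wild type (control) or Zcchc8 KO, and each genotype was sampled after 0, 4 and 8 h in 5 µg/ml Actinomycin D, which blocks transcription, with 2 replicates in each of the 6 groups. Zcchc8 is a core protein of the nuclear exosome targeting complex, which hands unstable nuclear transcripts to the RNA exosome. The comparison asks whether the level or the loss of these mRNAs differed between the genotypes. The labels name no number of KO clones and no separate cultures, so the spread behind each p-value is that of the libraries and could be technical.

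The mitochondrial ribosome sits in the matrix of the organelle and translates the few proteins encoded by mitochondrial DNA, all of them subunits of the respiratory chain and the ATP synthase. Its ribosomal RNAs come from mitochondrial DNA, whereas all of its proteins come from nuclear genes and are imported. Some of the proteins have a counterpart in the bacterial ribosome and others were added in the mitochondrial lineage. Mrps30 and Mrps18a carry small-subunit names but their proteins sit in the large subunit. Mrps36 is now known as a component of the 2-oxoglutarate dehydrogenase complex. The nuclear genes of mitochondrial proteins are known targets of the transcription factors NRF1 and GABP, an ETS family factor, and of YY1.

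Each library held 465324 to 1364523 counted reads, of which 1673 to 4852 fell on the 77 genes, with a median of 30 reads per tested gene and library. The table held 0 rows for genes of mitochondrial DNA. Values were read counts after the authors' division by a factor for each library. On this scale the median gene of the table was itself higher in KO than in control, by 0.44, 0.29 and 0.63 (log2) at 0, 4 and 8 h. Counts of called members and their medians are therefore given on the deposited scale and again after scaling by trimmed mean of M-values (TMM), which sets the libraries to a common level. Control 0 h replicate 2 lay 0.81 (log2, median gene) above replicate 1. Zcchc8 itself had 59.3 and 77.5 normalised reads in control at 0 h and 25.3 and 5.29 in KO. It had 32.7 and 24.7 against 21.3 and 13.6 at 4 h, and 7.57 and 11.3 against 9.56 and 3.78 at 8 h, where the genotypes overlapped. Rn45s, the precursor of ribosomal RNA, had 131959 and 219412 normalised reads in control at 0 h and 1967 and 2369 at 4 h, and in KO 234828 and 193438 at 0 h and 5347 and 7151 at 4 h. Among 14 pluripotent cell markers, 11 reached a mean value of 10 and Esrrb was listed at 0. Their summed value at 0 h was 2866 and 4726 in control and 4239 and 3770 in KO. Among 16 fibroblast markers, 12 reached a mean value of 10, and Lum, Pdgfrb and Postn were listed at 0. The fibroblast sum at 0 h was 6191 and 10243 in control and 19417 and 14742 in KO, a sum that is mostly collagen transcripts. Of the 12 tested, 5 were higher in KO at 0 h by limma on the deposited scale, where 4.23% of all genes were. Cdh11 and Thy1, those with the smallest p, also passed after TMM scaling (limma adjusted p = 0.0347 and 0.0129). The count of fibroblast markers on that scale is not given here. By contrast, Fn1 had 9.22 and 45.2 in control and 3.37 and 12.3 in KO.

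How much of the family the table shows depends on its rows. Of the 69 members with 1 transcript row, 62 were tested, against 1 of the 8 members with several rows. That 1 is Mrpl48, whose mean value of 219 normalised reads came almost wholly from a noncoding RefSeq row, with 0.304 on its coding row. The 14 members not tested were Mrpl1, Mrpl2, Mrpl15, Mrpl32, Mrpl41, Mrpl47, Mrpl55, Mrps2, Mrps6, Mrps10, Mrps18c, Mrps23, Mrps33 and Mrps36. None of them had more than 26 reads in any library, and Mrpl55, Mrps2, Mrps23 and Mrps36 were listed at 0 throughout. No level is read from these 14.

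The promoters are shown because they carry a feature that the choice by name did not use. RefSeq (GRCm38.p6) gave a promoter for 68 of the 77 members, a window of 300 bases that ends shortly after the annotated start. The letters CCGGAAG, the core of ETS family sites, were found on either strand in 25 of the 68 members (36.8%), against 21.5% of 5165 tested genes with a promoter and 9.93% of all 27025 genes. GCGCATGCG, the NRF1 core, was found in 7 members (10.3%), against 4.09% of the tested genes and 1.95% of all genes. AAGATGGCG, the YY1 core, was found in 8 members (11.8%), against 4.14% and 1.64%. The letters GGGCGG, bound by SP1, went the other way, with 34 members (50%) against 70.3% of the tested genes and 38.2% of all genes. None of these 4 motifs contains another, but the NRF1 letters are close to their own reverse complement, so that 1 site can match on both strands. A match is a description of letters, not of binding. The 5 promoters printed here show the ETS letters beside NRF1 letters, beside YY1 letters, in 2 copies, in the member that passed the test between genotypes, and absent from the member with the highest level. They are Mrpl22 (chr11:58171414-58171713, plus strand), Mrps18a (chr17:46110754-46111053, plus strand), Mrpl43 (chr19:45006393-45006692, minus strand), Mrps26 (chr2:130563507-130563806, plus strand) and Mrps25 (chr6:92183974-92184273, minus strand). Capitals mark matches to the ETS, NRF1 or YY1 letters on either strand.
Mrpl22: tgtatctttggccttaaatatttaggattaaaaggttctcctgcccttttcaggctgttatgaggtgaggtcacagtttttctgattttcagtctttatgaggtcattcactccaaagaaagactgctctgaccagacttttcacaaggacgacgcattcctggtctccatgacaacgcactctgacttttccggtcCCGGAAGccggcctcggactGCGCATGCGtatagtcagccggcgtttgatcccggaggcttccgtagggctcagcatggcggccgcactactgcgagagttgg
Mrps18a: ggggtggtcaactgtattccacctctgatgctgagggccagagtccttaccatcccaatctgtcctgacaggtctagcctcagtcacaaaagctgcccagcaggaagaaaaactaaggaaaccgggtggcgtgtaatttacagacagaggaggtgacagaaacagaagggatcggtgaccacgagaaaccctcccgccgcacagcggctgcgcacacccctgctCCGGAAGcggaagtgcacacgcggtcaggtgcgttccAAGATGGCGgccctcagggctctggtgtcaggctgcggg
Mrpl43: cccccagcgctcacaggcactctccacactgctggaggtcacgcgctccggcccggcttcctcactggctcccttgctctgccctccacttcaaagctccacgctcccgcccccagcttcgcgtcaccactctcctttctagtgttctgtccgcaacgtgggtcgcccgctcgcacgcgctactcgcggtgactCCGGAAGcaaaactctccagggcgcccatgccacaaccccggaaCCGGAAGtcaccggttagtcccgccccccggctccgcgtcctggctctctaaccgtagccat
Mrps26: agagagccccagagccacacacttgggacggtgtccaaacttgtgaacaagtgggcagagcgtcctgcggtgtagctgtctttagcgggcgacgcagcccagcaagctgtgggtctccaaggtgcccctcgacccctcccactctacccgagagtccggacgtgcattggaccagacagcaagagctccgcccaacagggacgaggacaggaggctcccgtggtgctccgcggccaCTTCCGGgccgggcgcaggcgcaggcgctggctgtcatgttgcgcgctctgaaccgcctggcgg
Mrps25: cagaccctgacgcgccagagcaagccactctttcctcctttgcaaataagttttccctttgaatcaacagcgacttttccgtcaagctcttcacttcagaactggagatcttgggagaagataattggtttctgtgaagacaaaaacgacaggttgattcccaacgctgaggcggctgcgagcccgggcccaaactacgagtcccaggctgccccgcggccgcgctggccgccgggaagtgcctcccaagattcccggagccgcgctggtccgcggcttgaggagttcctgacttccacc
In Mrpl22 the ETS letters begin 53 bases before the start and the NRF1 letters 33 bases before it. In Mrps18a the ETS letters begin 26 bases before the start and the YY1 letters at base 12 of the transcript. Mrpl43 has its ETS matches 56 and 12 bases before the start. Mrps26 has the ETS letters on the opposite strand, beginning 14 bases before the start. Mrps25 has none of the 4 motifs in this window.

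Before the drug, levels per kilobase of transcript differed widely within a family whose proteins assemble into 1 particle. Over the 4 libraries at 0 h (both genotypes), the 63 tested members ranged from 6.18 to 207 normalised reads per kilobase, with a median of 30.8. Mrps25, a mitochondria-specific protein of the small subunit, stood highest at 207 ± 65.3 (SD, n = 4 libraries). It was followed by Mrpl52 at 175 ± 59.3, Mrpl48 at 171 ± 57.5, Mrpl43 at 109 ± 29.1 and Mrpl42 at 104 ± 15.2, all 4 mitochondria-specific proteins of the large subunit. Mrpl3 was lowest, at 6.18 ± 4.39. Neighbours in a sorted order are close by its making, and 0 of the 62 pairs of them differed beyond their spread, so single ranks are not exact. By role, the medians per kilobase were 30.3 for 24 large-subunit genes with a bacterial counterpart and 34.2 for 19 specific to mitochondria. In the small subunit they were 37.8 for 12 genes with a bacterial counterpart and 24.6 for 8 specific to mitochondria, so the roles overlapped in level.

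**Figure D1:**
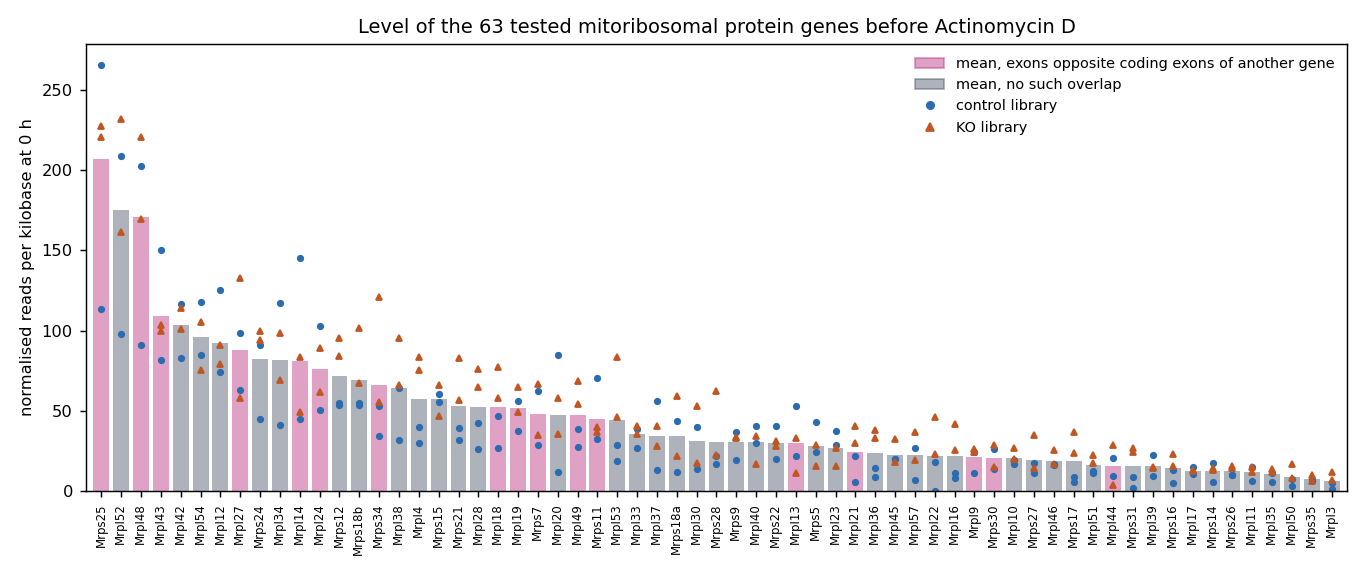
Level per kilobase of transcript at 0 h (y axis, normalised reads per kilobase) for the 63 tested members, in order of their mean over 4 libraries (bars), with control libraries as circles and KO libraries as triangles. Pink bars are members whose exons lie opposite coding exons of another gene, and they include Mrps25 at the top (207).

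Part of that order goes with overlap between genes on opposite strands. By GENCODE M21 (GRCm38), 18 of the 77 members, 17 of them tested, have exons opposite coding exons of another gene. The share of the transcript so covered was 75.6% in Mrps25 (opposite Nr2c2, an orphan nuclear receptor), 62.7% in Mrps34 (Mapk8ip3), 48.5% in Mrpl24 (Rrnad1), 39.2% in Mrpl19 (Gcfc2) and 27.5% in Mrpl43 (Twnk, the mitochondrial DNA helicase). Whether reads were counted by strand, and on which strand, is not stated in the sources used here. Without strand, reads of a gene and of its antisense partner cannot be told apart. The values of members with such an overlap may therefore not be those of their own mRNA. At 0 h the median level was 51.9 normalised reads per kilobase in the 17 tested members with such an overlap and 28.9 in the 46 without. In the table as a whole, 42 of the 100 genes with the highest mean value over the 12 libraries, which is not per length, had such an overlap, against 23.8% of the tested genes. For these shares all transcripts of a gene were scored. Mrpl53 lies wholly within Gm42688 on the same strand, so its reads may be shared too.

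Between the genotypes before the drug, no member passed the test. On the deposited scale 0 of 63 members were higher and 0 lower in KO at 0 h by limma (Benjamini-Hochberg adjusted p below 0.05), where 4.23% of 6952 genes were higher and 0.0719% lower. By unadjusted p below 0.05, 10 members were higher and 0 lower, against 17% and 0.547% of all genes. After adjustment 0 were called in either direction after TMM scaling (1.75% of all genes higher and 0.388% lower), by edgeR (2.26% and 0.0288%) or by DESeq2 (1.45% and 0.619%). The median member was 0.42 (log2) higher in KO, close to the 0.44 of all genes, and after TMM scaling the medians were 0.036 and 0.043. The values of both KO libraries lay above both control libraries in 26 of 63 members and below them in 1, against 37.3% and 3.27% of all genes. The 3 members with the smallest p were Mrpl4, Mrpl22 and Mrps31. Mrpl4, whose protein lines the peptide exit tunnel, had 38.2 and 51.7 normalised reads in control and 108 and 97.0 in KO. Its KO libraries were both the higher, a log2 difference of 1.18 (SE 0.45, limma adjusted p = 0.134), or 0.78 (adjusted p = 0.299) after TMM scaling. Without control replicate 2, the Mrpl4 difference was 1.40. The count of members called changed when either control library was left out, and the share of all genes called in those fits is not given here. Mrpl22, another protein of the exit tunnel, had 13.2 and 0 in control and 16.8 and 33.5 in KO, and the control library at 0 is one where a single read counts as 3.23. Its difference was 2.72 (SE 1.07, adjusted p = 0.146, and 1.91 with 0.498 after TMM) and ranged from 0.81 to 4.63 when single libraries were left out. Without control replicate 1, where the value of 0 alone stands for control, the adjusted p was 0.00573. Mrps31, a small-subunit protein specific to mitochondria, had 2.63 and 12.9 in control and 37.1 and 40.6 in KO, a difference of 2.48 (SE 1.01, adjusted p = 0.158, and 2.06 with 0.336 after TMM), and without control replicate 2 of 3.45 (adjusted p = 0.0264). Unlike these 3 genes, 5 of the 12 tested fibroblast markers passed the limma test as higher in KO at 0 h (4.23% of all genes). The part of such markers in the values of the 3 genes was not tested. In such bulk samples fewer cells of a type and less RNA per cell cannot be told apart.

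At 4 h in Actinomycin D no member passed the test between genotypes. Of 63 members 0 were higher and 0 lower in KO by limma, against 0.748% and 0% of all genes. At an unadjusted p below 0.05 there was 1 higher and 0 lower, against 8.9% and 0.834% of all genes. After TMM scaling (0.877% of all genes higher and 0.23% lower), by edgeR (1.04% and 0.0288%) and by DESeq2 (1.38% and 0.705%) the count was 0 in both directions. The median member was 0.31 higher (all genes 0.29), or 0.064 after TMM scaling (all genes 0.041). Both KO libraries lay above both control libraries in 20 of 63 members and below them in 7, against 37.0% and 8.70% of all genes. Mrpl53, of the large subunit, was among the 20, with 10.9 and 17.8 normalised reads in control and 38.7 and 42.6 in KO. Its difference was 1.48 (SE 0.56, limma adjusted p = 0.302), or 1.24 (adjusted p = 0.318) after TMM scaling. Mrps17, the counterpart of bacterial S17, had 2.91 and 4.63 in control and 14.6 and 10.7 in KO (difference 1.52, SE 0.82, adjusted p = 0.577, and 1.32 with 0.594 after TMM). Mrpl34, the counterpart of bacterial L34, had 16.7 and 40.9 against 50.4 and 52.3 (difference 0.94, SE 0.56, adjusted p = 0.630, and 0.70 with 0.675 after TMM). Without single libraries the Mrpl34 difference ranged from 0.32 to 1.56, so that 1 control library set its size.

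At 8 h 1 member was called. Mrps26, a small-subunit protein specific to mitochondria, had 4.32 and 5.42 normalised reads in control and 12.7 and 30.2 in KO. Those values stand for 8 and 12 reads in control and 20 and 24 reads in KO, and the groups did not overlap. Its difference was 1.83 (log2, SE 0.57, limma adjusted p = 0.0494), and 1.23 with an adjusted p of 0.239 after TMM scaling. The call was lost in 9 of the 12 fits that left out a library, all except the 3 that dropped KO 8 h replicate 1 or one of the control 0 h libraries, with differences from 1.23 to 2.42. The number of members called also changed in 11 of those 12 fits, and the share of all genes called in them is not given here. With 1 of 63 members higher and 0 lower, the family stood beside 4.88% of all genes higher and 0.0144% lower. By edgeR 4 members were higher and 0 lower (8.37% and 0.0144% of all genes), and after TMM scaling (1.41% and 0.302%) or by DESeq2 (2.19% and 0.345%) the count was 0 in both directions. Mrpl42 had 11.9 and 30.7 in control and 65.0 and 50.4 in KO, a difference of 1.53 (SE 0.48, adjusted p = 0.0503). Mrpl18, whose bacterial counterpart binds the 5S ribosomal RNA, had 16.2 and 28.0 against 66.9 and 55.4 (difference 1.47, SE 0.46, adjusted p = 0.0534). Both sit just outside the threshold on the deposited scale, and edgeR on the same scale put them inside it, at 0.0473 and 0.0389. After TMM scaling their adjusted p was 0.328 and 0.436. The median member was 0.62 higher in KO (all genes 0.63), and with TMM scaling, where the sign turned, it was -0.048 (all genes -0.048). Both KO libraries lay above both control libraries in 31 of 63 members and below in 1, against 55.3% and 2.86% of all genes. The precision limits all 3 comparisons, since the median member had a 95% interval of ± 1.14 (log2) around its difference, and at 8 h 0 of 63 intervals lay within ± 1.

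**Figure D2:**
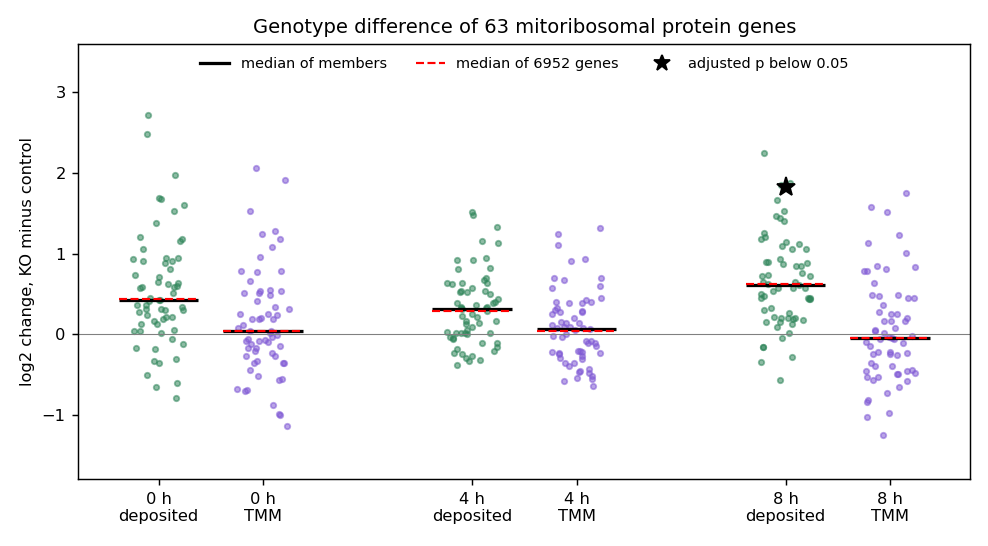
Difference between KO and control (y axis, log2) for each of the 63 tested members (points) at 0, 4 and 8 h, on the deposited scale (green) and after TMM scaling (purple). The black line is the median member and the dashed red line the median of 6952 genes (0.42 and 0.44 at 0 h on the deposited scale), and the star is Mrps26 at 8 h (1.83).

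During the drug the family lost value at about the rate of the median gene. In control, 33 of 63 members fell and 0 rose in a fit of log2 value against hours (limma adjusted p below 0.05), against 52.1% of all genes falling and 0.446% rising. The median member changed by -0.162 per hour (log2), against -0.166 for all genes. In KO, 26 fell and 0 rose, against 37.3% and 0.0288% of all genes, and the median member changed by -0.149 per hour, against -0.143. The counts lean on single libraries: 21 fell in control without control 0 h replicate 2 and 19 without control 8 h replicate 1, and in KO 10 fell without either 0 h library and 15 without either 8 h library. After TMM scaling, which removes the common loss, the median member changed by 0.015 per hour in control, the opposite sign, and by -0.0083 in KO. On that scale 4 members fell and 1 rose in control (8.14% and 9.11% of all genes), and 1 fell and 1 rose in KO (3.6% and 2.16%). DESeq2, with size factors of its own, gave 5 falling and 0 rising in control (10.7% and 7.16%) and 1 falling and 1 rising in KO (5.26% and 3.88%). By edgeR on the deposited scale 33 fell in control (52.6%, with 0 members and 0.101% of genes rising) and 24 in KO (38.5%, with 0 members and 0.0288% rising). Of the genes falling on the deposited scale 17 were the same in both genotypes, which is 51.5% of the control list and 65.4% of the KO list.

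Mrps25 fell fastest among members with a mean of at least 50 normalised reads at 0 h. In control it had 689 and 1612 normalised reads at 0 h, 239 and 253 at 4 h and 105 and 89.9 at 8 h. In KO it had 1383 and 1340, then 186 and 205, then 120 and 267. No value after the drug reached those at 0 h in either genotype. Its change per hour was -0.43 in control (SE 0.07, adjusted p = 3.4e-05) and -0.37 in KO (SE 0.07, adjusted p = 0.000365), and it was called after TMM scaling as well, at adjusted p = 0.00718 and 0.0270. Nr2c2, the gene on its opposite strand, went from 121 and 194 to 60.4 and 52.5 and then 45.4 and 49.7 in control, and from 216 and 210 to 67.8 and 82.3 and then 71.4 and 130 in KO. Both genes thus lost most of their value between 0 and 4 h.

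Mrpl19, the counterpart of bacterial L19, had 186 and 281 normalised reads at 0 h in control, 111 and 91.9 at 4 h and 33.0 and 38.4 at 8 h. Its change in control was -0.33 per hour (SE 0.05, adjusted p = 1.2e-05, and 0.0155 after TMM). Mrps26 in control went from 42.1 and 42.0 through 15.3 and 34.8 to 4.32 and 5.42, a change of -0.36 per hour (SE 0.07, adjusted p = 0.00019, and 0.0409 after TMM). In KO the same gene went from 67.4 and 61.7 through 40.9 and 48.4 to 12.7 and 30.2. Mrps30, a large-subunit protein despite its name, changed by -0.34 per hour in control (adjusted p = 0.00073) and -0.33 in KO (adjusted p = 0.00226), and after TMM scaling it passed in neither (0.122 and 0.140). It had 3 reads in KO 8 h replicate 2, and without the KO 0 h replicate 1 its KO fall had an adjusted p of 0.0517. In KO the other fast members were Mrpl38 at -0.25 per hour (adjusted p = 0.00199) and Mrpl49 at -0.24 (adjusted p = 0.00498), both specific to mitochondria and both not called after TMM scaling (0.184 and 0.368). Without the KO 0 h replicate 1 the fall of Mrpl49 had an adjusted p of 0.0770.

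At the slow end stood members whose change per hour was close to 0 and did not pass the test. Mrpl54, of the large subunit, had 51.4 and 71.1 normalised reads at 0 h in control, 62.6 and 78.0 at 4 h and 27.0 and 61.4 at 8 h. In KO it had 45.5 and 63.5, then 68.4 and 98.8, then 50.4 and 63.0, so that the values at 8 h overlapped those at 0 h in both genotypes. Its change was -0.07 per hour in control (SE 0.06, adjusted p = 0.309) and 0.01 in KO (SE 0.06, adjusted p = 0.910). Mrpl28, the counterpart of bacterial L28, changed by -0.04 per hour in control (adjusted p = 0.625), Mrpl4 by -0.06 (adjusted p = 0.370) and Mrpl45, which tethers the ribosome to the inner membrane, by -0.11 (adjusted p = 0.154). In KO the slowest besides Mrpl54 were Mrps15 at 0.004 per hour (adjusted p = 0.959), Mrps5 at -0.004 (adjusted p = 0.951) and Mrpl42 at -0.04 (adjusted p = 0.586). After TMM scaling Mrps5, a protein of the decoding site region, changed in KO by 0.14 per hour (adjusted p = 0.0439), a rise relative to the other genes. Mrpl48, also high in level, had 148 and 329 normalised reads at 0 h in control, 236 and 216 at 4 h and 91.3 and 132 at 8 h.

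**Figure D3:**
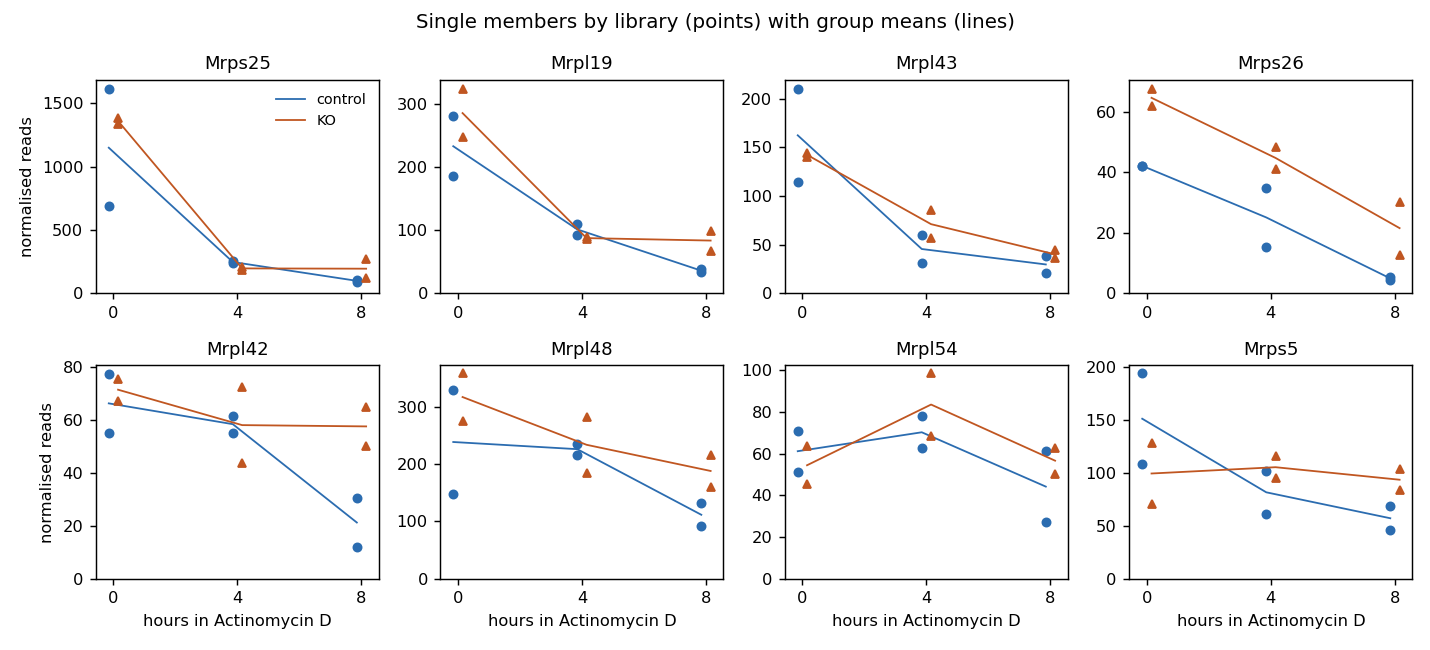
Normalised reads (y axis) of 8 members by hours in Actinomycin D, with each library as a point and the group means joined by lines, control blue and KO orange. Mrps25 drops from 1150 to 246 in control between 0 and 4 h (means), while Mrpl54 stands at 61.2 and 70.3.

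For no member was the rate called different between the genotypes. The difference of the change per hour (KO minus control) was called for 0 of 63 members in either direction by limma, edgeR or DESeq2, where 0% of all genes passed in either direction by limma, with or without TMM scaling, or by edgeR, and 0.0575% were higher in KO by DESeq2. At an unadjusted p below 0.05 there were 2 members higher and 0 lower, against 3.21% and 1.83% of all genes. The median difference was 0.020 per hour (all genes 0.022), and the median member's 95% interval was ± 0.20 per hour wide. The smallest p belonged to Mrps5, with 0.17 per hour (95% interval 0.01 to 0.32, adjusted p = 0.951), followed by Mrpl42 with 0.18 (0.001 to 0.35, adjusted p = 0.951) and Mrpl27 with 0.19 (-0.004 to 0.38, adjusted p = 0.951). After TMM scaling the 3 differences were 0.13, 0.14 and 0.16 per hour, with adjusted p of 0.722, 0.735 and 0.735. Mrps5 had 108 and 194 normalised reads in control at 0 h, 61.1 and 102 at 4 h and 45.9 and 68.2 at 8 h, against 128 and 70.5, 115 and 94.9, and 83.5 and 103 in KO. Mrpl42 had 55.3 and 77.5, then 55.3 and 61.8, then 11.9 and 30.7 in control, and 67.4 and 75.8, then 43.7 and 72.7, then 65.0 and 50.4 in KO. For both genes the control value at 8 h lay below every KO value at that time. Mrpl27, which sits near the peptidyl transferase centre, had 7.57 and 14.5 in control at 8 h and 24.2 and 51.6 in KO.

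**Figure D4:**
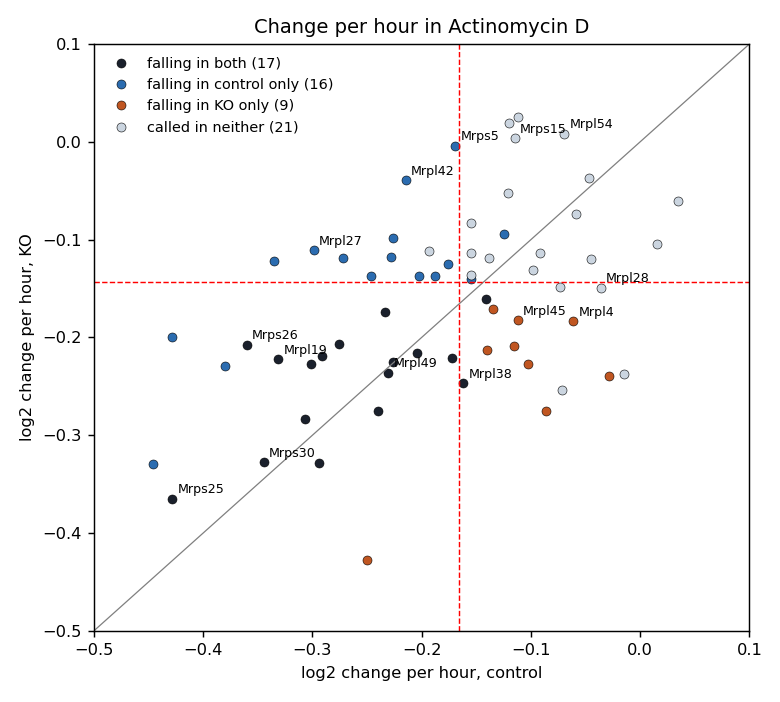
Change per hour (log2, deposited scale) of the 63 tested members in control (x axis) and KO (y axis), coloured by the genotypes in which they fell, with the members named for their rates or rate differences labelled. Dashed red lines are the medians of all genes (-0.166 and -0.143), the grey line is equality, and 17 members fell in both genotypes.

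The loss was not even over time. In control the median member changed by -0.27 (log2) from 0 to 4 h and by -1.11 from 4 to 8 h, while the median of all genes changed by -0.49 and -0.79. In KO the members changed by -0.46 and then -0.79, and all genes by -0.68 and -0.45. The members' median loss was thus below that of the table in the first interval and above it in the second, in both genotypes. With single libraries left out the members' control medians ranged from -0.69 to -0.06 and from -1.34 to -0.88, and each of the 4 control libraries at 0 and 4 h moved the first of them by over 1.5 times. After TMM scaling the members stood 0.31 higher at 4 h than at 0 h and then 0.29 lower at 8 h in control (all genes 0.13 higher, then 0.001 higher). In KO they stood 0.31 higher and then 0.41 lower (all genes 0.10 higher, then 0.08 lower). This contrast between the intervals is one of medians and was not tested. Few members passed within an interval. From 0 to 4 h in control 3 fell and 0 rose (Mrps25, Mrpl43 and Mrpl19, against 11.8% and 0.489% of all genes), and in KO 3 fell and 0 rose (Mrps25, Mrpl19 and Mrpl49, against 14.4% and 0.0288%). From 4 to 8 h 6 fell and 0 rose in control (Mrpl19, Mrps26, Mrpl27, Mrps12, Mrps25 and Mrpl42, against 4.63% and 0%). In KO 0 fell and 0 rose in that interval by limma, against 0.0288% and 0% of all genes. At an unadjusted p below 0.05, 7 of the 63 members fell there, against 10.3% of all genes.

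All 4 genes that fell from 0 to 4 h in either genotype (Mrps25, Mrpl43, Mrpl19 and Mrpl49) have exons opposite coding exons. In Mrpl49 only 5.16% of the transcript is so covered. Mrps34 and Mrpl24, with 62.7% and 48.5% covered, were not called in that interval. The 17 tested members with such an overlap had a median change of -0.87 in control and -0.82 in KO over that interval, and the 46 without had -0.22 and -0.35. Members without overlap were also mostly negative, 32 of 46 in control and 37 of 46 in KO. The lowest of them in control was Mrpl46, of the large subunit, with 18.4 and 19.4 normalised reads at 0 h and 4.37 and 3.09 at 4 h. Its change of -2.09 did not pass the test (limma adjusted p = 0.118). Exons of another Mrpl46 transcript than the one scored lie opposite 16.4% of the Mrps11 transcript, so Mrpl46 is not wholly free of overlap. After TMM scaling the medians were -0.24 and -0.038 with overlap and 0.39 and 0.41 without. The difference between these sets was not tested. Mrps25 changed by -2.09 in control (SE 0.40, limma adjusted p = 0.000295) and -2.79 in KO (SE 0.40, adjusted p = 2.26e-06), and Mrpl43 by -1.82 in control (SE 0.45, adjusted p = 0.00537) and -1.02 in KO (adjusted p = 0.125). Mrpl43 had 115 and 210 normalised reads at 0 h in control and 31.3 and 59.5 at 4 h. Without Mrps25 the median change in control was -0.27 as before. After TMM scaling 2 members rose from 0 to 4 h in control, Mrpl4 (1.27, adjusted p = 0.0230) and Mrps27 (1.38, adjusted p = 0.0371), and 1 in KO, Mrpl54 (1.38, adjusted p = 0.0171), against 6.3% of all genes in control and 4.72% in KO. Those still falling on that scale were Mrps25 and Mrpl43 in control and Mrps25 in KO (6.36% and 4.32% of all genes). None of the 3 that rose has exons opposite coding exons.

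The share of reads was summed for the same sets. Of all reads outside Rn45s, the 77 members took 0.445% ± 0.0106 (SD, n = 2) in control at 0 h, 0.365% ± 0.000349 at 4 h and 0.303% ± 0.0123 at 8 h. In KO they took 0.437% ± 0.000116, 0.358% ± 0.0002 and 0.298% ± 0.0261, so the genotypes had much the same share at each time. The 18 members with opposite-strand overlap went from 0.249% to 0.150% and 0.116% in control and from 0.236% to 0.128% and 0.122% in KO. The 59 without went from 0.196% to 0.215% and 0.187% in control and from 0.201% to 0.230% and 0.176% in KO. In that set the KO libraries at 8 h lay at 0.156% and 0.196% and the control libraries at 0 h at 0.180% and 0.212%, so these ranges overlapped. Mrps25 is 1 of the 18. In control it had 523 and 499 of the members' 2374 and 1740 reads at 0 h, and 329 and 328 of 3132 and 3741 at 4 h. In KO it had 821 and 760 of 3249 and 3077, then 332 and 212 of 4852 and 3304. Without Mrps25 the means showed no fall of that size from 0 to 4 h. The other 76 members took 0.333% at 0 h and 0.330% at 4 h in control and 0.328% and 0.334% in KO. The fall in the summed share of the 18 thus leans on this 1 gene, and their share without it is not given here.

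**Figure D5:**
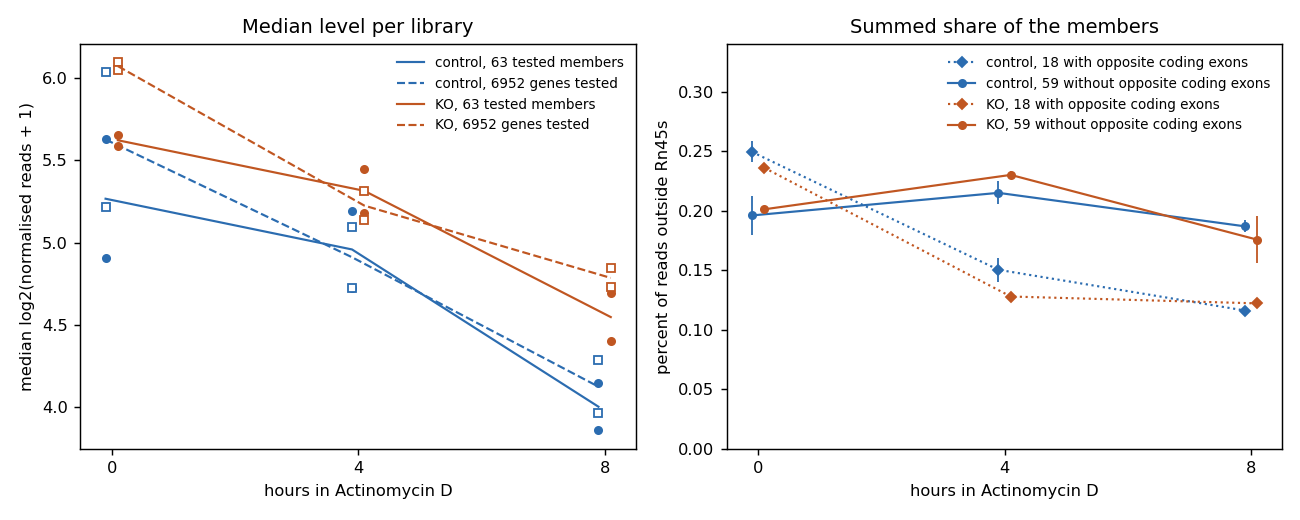
Left, the median log2(normalised reads + 1) per library over hours in Actinomycin D for the 63 tested members (filled circles, solid lines through the means) and all 6952 genes tested (open squares, dashed lines). Right, the summed share of reads outside Rn45s for members with (diamonds, dotted) and without (circles, solid) exons opposite coding exons. Points are means of 2 libraries with the range as a bar. In control the first set, which holds Mrps25, falls from 0.249% to 0.116% and the second goes from 0.196% to 0.187%.

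By role in the particle, the falls on the deposited scale were spread over all 4 lists. Of all tested genes 52.1% fell in control and 37.3% in KO. In the large subunit, 8 of 24 tested genes with a bacterial counterpart fell in control and 7 in KO, with medians of -0.130 and -0.125 per hour. Among them were Mrpl12, which recruits translation factors to the ribosome, and Mrpl19. Of the 19 genes specific to mitochondria 13 fell in control and 9 in KO (medians -0.205 and -0.171). In the small subunit, 6 of 12 with a bacterial counterpart fell in control and 5 in KO (medians -0.141 and -0.151), and 6 of 8 specific to mitochondria in control and 5 in KO (medians -0.274 and -0.207). After TMM scaling the medians in control were 0.031, -0.027, 0.039 and -0.122 in the same order, so that the sign differed between the lists. The last list holds Mrps25 and Mrps26, and Mrps22, which fell in control by 0.43 per hour (adjusted p = 0.000391, and 0.0228 after TMM). Between genotypes these lists gave 0 calls by limma apart from Mrps26.

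Among the remaining genes of mitochondrial translation 4 calls were made between genotypes on the deposited scale, in 3 genes, where 4.23% of all genes were higher in KO at 0 h and 4.88% at 8 h. After TMM scaling only both calls of Rbfa passed. Of 6 mitoribosomal proteins outside the naming rule 5 were tested, and 1 was higher in KO at 8 h, Gadd45gip1, a protein of the large subunit (1.41, SE 0.40, adjusted p = 0.0300, and 0.70 with 0.199 after TMM scaling). It had 457 and 462 normalised reads in control and 789 and 1908 in KO, so the KO libraries lay far apart. Dap3, a GTP-binding protein of the small subunit, had several transcript rows and was listed at 0 in 10 of the 12 libraries. Of 13 tested assembly factors 2 were higher in KO at 0 h. They were Rbfa, a factor for maturation of the small subunit (2.12, SE 0.43, adjusted p = 0.00196, and 1.72 with 0.00421 after TMM), and Mrm1, a methyltransferase of the large-subunit ribosomal RNA (2.099, SE 0.54, adjusted p = 0.0176, and 1.70 with 0.0506 after TMM), and Rbfa was also the 1 called at 8 h (2.11, adjusted p = 0.00131, and 1.42 with 0.0152 after TMM). None of 7 tested translation factors, 9 mitochondrial aminoacyl-tRNA synthetases and 12 factors of mitochondrial transcription and RNA processing was called between genotypes at any time by limma. At an unadjusted p below 0.05, 17%, 8.9% and 22.4% of all genes were higher in KO at 0, 4 and 8 h. The translation factors gave 2, 0 and 1 higher, the synthetases 0, 0 and 1 and the last group 1, 1 and 4, with 0 lower in each. During the drug 52.1% of all genes fell in control and 37.3% in KO. Of the 7 translation factors 3 fell in control and 1 in KO, Oxa1l, the inner membrane insertase (-0.33 and -0.21 per hour). Of the synthetases 4 and 2 fell, and of the transcription and processing factors 7 and 4. Of these factors Polrmt, the mitochondrial RNA polymerase, had the smallest p in both genotypes (-0.32 and -0.21 per hour). It was not the fastest, since the most negative changes of that list were -0.511 and -0.390.

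Other protein groups were read on the same scale. Against the same shares of all genes, 52.1% in control and 37.3% in KO, fewer of the ribosomal and respiratory chain genes fell. Of 69 tested cytosolic ribosomal protein genes 10 fell in control and 3 in KO, with medians of -0.080 and -0.054 per hour. Of 62 nuclear-encoded respiratory chain genes, whose products assemble with those made by the mitochondrial ribosome, 12 and 3 fell (medians -0.067 and -0.069). The members' medians were -0.162 and -0.149. After TMM scaling the control medians were 0.015 for the members, 0.105 for the cytosolic ribosomal proteins and 0.114 for the respiratory chain. The difference between these lists was not tested. Pluripotency genes, known for short-lived mRNAs, had a median of -0.221 in control, with 9 of 11 falling.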

How the data were processed

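The authors deposited a normalised signal for each RefSeq transcript, in which every library's read counts had been divided by a factor of its own. For the build the submitters' processing notes name mm9, and for tools DESeq2, HTSeq 0.6.0 and TopHat2 2.1.1. Settings, the use of strand and the rows behind the factors are not stated in the sources used here. The labels say that ERCC spike-ins were added. With 0 spike-in rows in the table, no rescaling to them was made and no half-life is given. Whole reads could be recovered for 100% of values (tolerance 0.001 reads). From 33896 rows, 978 repeats were dropped and 32918 transcripts were summed to 23974 symbols.

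Genes with a mean of at least 10 were tested with limma 3.58.1 (trend, robust, two-sided) in R 4.3.3 on log2(value + 1), with all 12 libraries in 1 fit and Benjamini-Hochberg adjustment over 6952 genes at 0.05. Changes of low genes tend to come out too small on this scale, but a library at 0 can make them too large, as in Mrpl22 at 0 h. The 6 group means gave the contrasts at each time and between times, and a fit of log2 value against hours gave the changes per hour and their difference. On simulated data without offsets between replicates, the test gave the right size for 4-fold changes. It found a much smaller share of the 2-fold changes, so differences of that size can be missed. edgeR 4.0.16 (quasi-likelihood) and DESeq2 1.42.0 on recovered reads, TMM scaling, pseudocounts of 0.5 and 5, other filters, a replicate block and leaving out each library were alternatives. Levels per kilobase use GENCODE M21 transcript lengths, which are of another build than mm9, so the only coordinates given are those of RefSeq promoters on GRCm38.p6. Genes named with values are all called members, the 3 with the smallest p in each genotype comparison and in the rate difference, the 4 fastest and 4 slowest in each genotype with at least 50 normalised reads at 0 h, and the 5 highest per kilobase. Others, named after their values were seen, illustrate an interval, a role or an overlap. The members and lists were chosen with earlier results of these data known. Depth was 465324 to 1364523 reads per library, and intervals cover counting error and library spread only as far as 2 libraries show it. The other 47 of 59 samples of the series were not used here.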

Additional observations from a re-analysis of the deposited data

How the results depend on the processing

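For the counts called higher in KO at 8 h (1), TMM scaling, DESeq2, a pseudocount of 5 and no filter on low values each gave 0, only the libraries compared gave 2, edgeR and a minimum mean of 30 gave 4 each, and at 0 h (0) a pseudocount of 5 gave 1. For the members falling per hour, control (33) gave 4 falling and 1 rising with TMM and 5 falling with DESeq2, and KO (26) gave 1 falling and 1 rising with either, and 17 falling with no filter and with a minimum mean of 30. The median member change in KO against control at 8 h was -0.048 with TMM and 0.054 with DESeq2. The median change per hour was 0.015 and 0.0013 in control and -0.0083 and -0.010 in KO with TMM and DESeq2. For the intervals, medians with TMM and DESeq2 were -0.29 and -0.29 for control from 4 to 8 h, 0.31 and 0.21 for KO from 0 to 4 h, and -0.41 and -0.22 for KO from 4 to 8 h. The fall of Mrps5 in KO (-0.004 per hour, not called) turned into 0.14 with TMM and 0.13 with DESeq2. The cause was not tested, beyond that these scalings remove the table-wide loss. For settings other than TMM, edgeR and DESeq2 the share of all genes called is not given here.

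Leaving out 1 library at a time gave 0 to 5 members higher in KO at 0 h, 0 at 4 h and 0 to 7 at 8 h, with 0 lower at any time. Medians ranged from 0.01 to 0.69, from 0.08 to 0.50 and from 0.46 to 0.73. In control 19 to 42 members fell (median -0.224 to -0.121 per hour) and in KO 10 to 29 (median -0.173 to -0.144), with 0 rising. The median rate difference ranged from -0.016 to 0.082, with 0 calls. The interval medians ranged from -0.69 to -0.06 and from -1.34 to -0.88 in control, and from -0.60 to -0.35 and from -0.88 to -0.55 in KO.

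Replicate numbers showed little pairing gene by gene. Over 15 pairs of groups the correlation across genes of the replicates' deviations ranged from -0.070 to 0.117, with 2 over 0.1. Such a correlation cannot see a shift shared by all genes of a library. For the median gene, replicate 2 minus replicate 1 was 0.81, 0.37 and 0.32 (log2) in control at 0, 4 and 8 h. In KO it was -0.055, 0.21 and 0.10, so whether the numbers pair the libraries was not settled. With the replicate number as a block 6 members were higher in KO at 8 h, and 33 fell in control and 28 in KO. The share of all genes called in that fit is not given here. Depth limits the low members most, with 16 reads for the median member in the shallower KO library at 8 h and 15 in control 0 h replicate 2.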
